A study of Mus musculus with 36 samples.

Results

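The later hours of an Ikaros induction, from 12 h to 24 h, were described across all 469 miRNAs measured in the mouse pre-B cell line B3. The samples were the 9 libraries of the Ikaros line collected at 12 h, 18 h and 24 h, 3 at each time, of 36 libraries in the whole series. Line and collection time, both read from the labels, decided the choice, and no measured value entered it. Cells of this line carried Ikaros with an HA tag, fused to the hormone-binding domain ERt2, on an MSCV retrovirus that also expressed GFP. Addition of 0.5 uM 4-hydroxy-tamoxifen moved the fusion protein into the nucleus. The control line, with 9 libraries at the same times, carried the vector with ERt2 and without Ikaros and received the same 4-hydroxy-tamoxifen. Each construct was studied as 1 transduced line. The replicate numbers 1, 2 and 4 stand for culture batches 1, 2 and 3, and both lines and all 3 times of a number came from the same batch. Per the methods of the study, each line and time of a batch was a flask of its own, and the flasks of a batch were split from 1 expanded culture per line and harvested together. All 9 Ikaros libraries were in the same sequencing batch, and 12 h replicate 2 and 18 h replicate 1 were also in the other. The libraries hold small RNAs, so the level of Ikaros itself was not checked here. Values of a time are listed in the order of replicates 1, 2 and 4.

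Ikaros is a zinc finger transcription factor of lymphocytes, and in B3 cells its move into the nucleus takes cells from the cycling pre-BI stage towards the resting pre-BII stage. A miRNA is cut from a hairpin, and each of the hairpin's arms (5p and 3p) can be loaded into an Argonaute protein, which then represses messenger RNAs that pair with the seed, bases 2 to 8 of the miRNA. The arm that is usually loaded is called the guide, and the other arm the partner. The miR-17-92 cluster is a known driver of B cell proliferation and survival, miR-155 a regulator of B cell activation, and miR-210 a miRNA of the response to low oxygen.

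The sequences of the miRNAs on which the results turn are given below from RefSeq (GRCm38.p6), 5′ to 3′, with the seed in capitals. A mature sequence was found by name for 391 of the 469 miRNAs and for 42 of the 51 that changed. The arms that fell are shown with the other arm of their hairpin, or with a relative, where those are compared later. The 5p arm of miR-92a-1 and its guide arm share no seed, while miR-92b-3p has the seed of miR-92a-3p.
miR-92a-1-5p: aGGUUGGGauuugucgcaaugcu
miR-92a-3p: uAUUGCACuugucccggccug
miR-92b-3p: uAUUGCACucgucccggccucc
miR-210-5p: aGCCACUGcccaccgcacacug
miR-210-3p: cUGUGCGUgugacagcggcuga
miR-155-3p: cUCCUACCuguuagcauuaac
miR-155-5p: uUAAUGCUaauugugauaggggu
miR-128-1-5p: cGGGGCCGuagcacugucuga
miR-128-2-5p: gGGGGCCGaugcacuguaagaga
miR-3091-3p: cGGGCCUGaccagucucaagac

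The miRNAs below that rose are shown with relatives of the same seed that were measured and had a sequence. Further measured members of the miR-30 family, miR-30b-5p and miR-30d-5p, had no sequence by name. Their changes of -0.03 and 0.29 did not pass the test. The miR-30 members shown, those of the miR-29 family and those of the miR-26 pair differ only outside the seed.
miR-30e-5p: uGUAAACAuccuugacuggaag
miR-30c-5p: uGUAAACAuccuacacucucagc
miR-29a-3p: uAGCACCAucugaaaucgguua
miR-29b-3p: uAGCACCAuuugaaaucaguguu
miR-29c-3p: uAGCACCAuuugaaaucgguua
miR-26a-5p: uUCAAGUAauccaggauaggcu
miR-26b-5p: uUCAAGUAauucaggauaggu
miR-22-3p: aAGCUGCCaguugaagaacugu
miR-350-3p: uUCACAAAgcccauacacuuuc
miR-149-5p: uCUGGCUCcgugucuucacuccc
miR-1198-5p: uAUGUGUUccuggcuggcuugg

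The deposited values are log2 normalized levels, already corrected by the authors for GC content, library composition and sequencing batch. The table holds no counts, so the number of reads behind a value cannot be read from it and no counting interval was computed. The listed B lineage and leukocyte miRNAs differed in level over the 9 libraries. miR-181a-5p, abundant in early B cells, lay between 17.82 and 18.49, and miR-191-5p between 17.75 and 18.48. The leukocyte miR-142-5p lay between 13.72 and 14.84, and miR-142-3p between 12.08 and 14.59. miR-17-5p was lower, between 5.74 and 7.27, near the endothelial marker miR-126a-3p, between 6.13 and 7.16. By contrast miR-150-5p, abundant in mature lymphocytes, lay between 3.07 and 4.48. None of the 6 measured B lineage and leukocyte miRNAs changed from 12 h to 24 h. Of the markers of other cells chosen for the lists, those of erythroid cells, liver and muscle were not among the 469 miRNAs. The neural miR-9-5p was high throughout (12.69 to 13.56), and none of the 8 listed markers of other cells that were measured passed the test in the fit reported here. The closest was the myeloid miR-223-3p, with 12 h values of 2.28, 3.28 and 1.81 and 24 h values of 3.51, 4.58 and 3.09. The groups overlapped, but the differences within same-numbered pairs were 1.23, 1.30 and 1.29. Its change was 1.27 (SE 0.45, adjusted p = 0.070), and it passed with sample medians subtracted (1.32, adjusted p = 0.047), without 24 h replicate 4 and without 12 h replicate 2. The part of such cells in the changes below was not tested.

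Libraries of the 12 h group stood apart from each other. In a principal component analysis of the 9 libraries, the first component held 40.3% of the variance and separated 12 h replicate 1, with a score of -10.4, from 12 h replicate 4, with 9.86. Replicate 2 of 12 h scored -4.02, the 18 h libraries between -2.67 and -0.638, and the 24 h libraries 7.89, 4.23 and -3.59. Time was read on the second component, with 25.1% of the variance. The 12 h libraries scored -3.86, -4.22 and -9.54 there, the 18 h libraries 0.687, 1.78 and 0.39, and the 24 h libraries 4.88, 4.78 and 5.09, so that the 3 times did not overlap. The median SD of a miRNA was 0.356 at 12 h, 0.239 at 18 h and 0.294 at 24 h. The miRNAs that led the first component were miR-19a-3p and miR-19b-3p, guide arms of the miR-17-92 cluster. The level of miR-19b-3p was 9.52, 11.34 and 16.36 in the 12 h libraries, 11.72, 12.71 and 11.95 at 18 h, then 14.46, 13.52 and 11.49 at 24 h. Its spread within 12 h exceeded any change of a group mean, and its fitted change was 0.75 with an SE of 1.27.

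**Figure D1:**
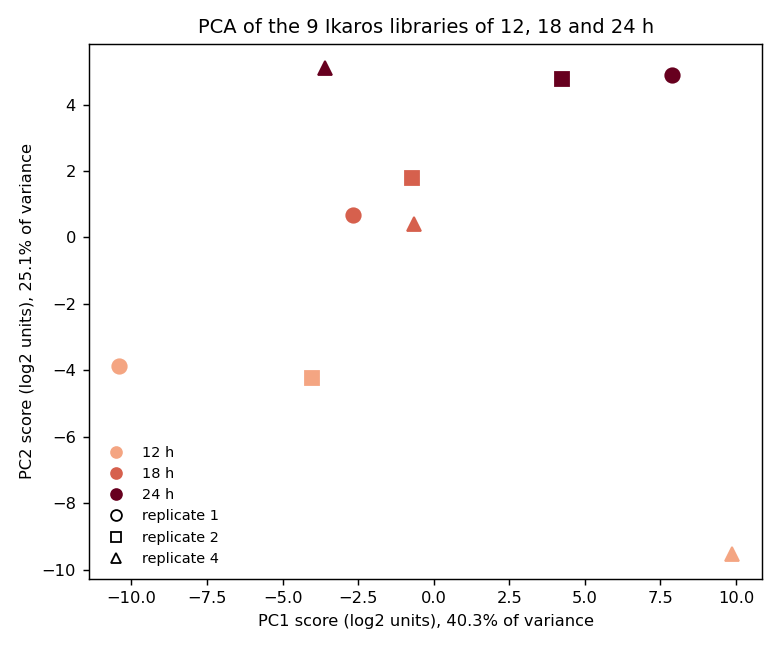
Scores of the 9 Ikaros libraries on the first (x axis, 40.3% of variance) and second (y axis, 25.1%) principal components, in log2 units, with the colour for the time and the symbol for the replicate number. Replicates 1 and 4 of 12 h lie at opposite ends of the x axis, at -10.4 and 9.86, while the times rise in order along the y axis.

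From 12 h to 24 h, 51 of 469 miRNAs changed (10.9%), of which 27 were higher (5.76%) and 24 lower (5.12%) at 24 h, by limma with Benjamini-Hochberg adjustment over all 469. In all, 112 had an unadjusted p under 0.05. The median change over all miRNAs was -0.036 and the median absolute change 0.325 on the log2 scale, against a median SE of 0.292. The called changes ran from 0.38 to 3.63 in size, and 24 reached 1 log2 unit. Among the 51, 47 had 12 h and 24 h libraries that did not overlap, against 110 of all 469 (23.5%), which were 55 in each direction (11.7%). The sign was the same in all 3 same-numbered pairs for 48 of the 51, which were selected for their change, and for 157 of all 469. Statements on pairs take the replicate numbers as labelled. Deviations of same-numbered 12 h and 24 h libraries from their group means were negatively correlated in each pair, and whether a 12 h number is misassigned was not tested. The spread came from all 36 libraries of the series: with only the 6 libraries compared, 7 miRNAs passed, namely miR-30e-5p, miR-350-3p, miR-149-5p, miR-28a-3p, miR-210-5p, miR-3091-3p and miR-92a-1-5p, and with the culture batch as a block in that fit none did (55 at an unadjusted p under 0.05). Without 12 h replicate 1 the count was 44 and without 12 h replicate 4 it was 52, of which 34 and 37 were among the 51.

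**Figure D2:**
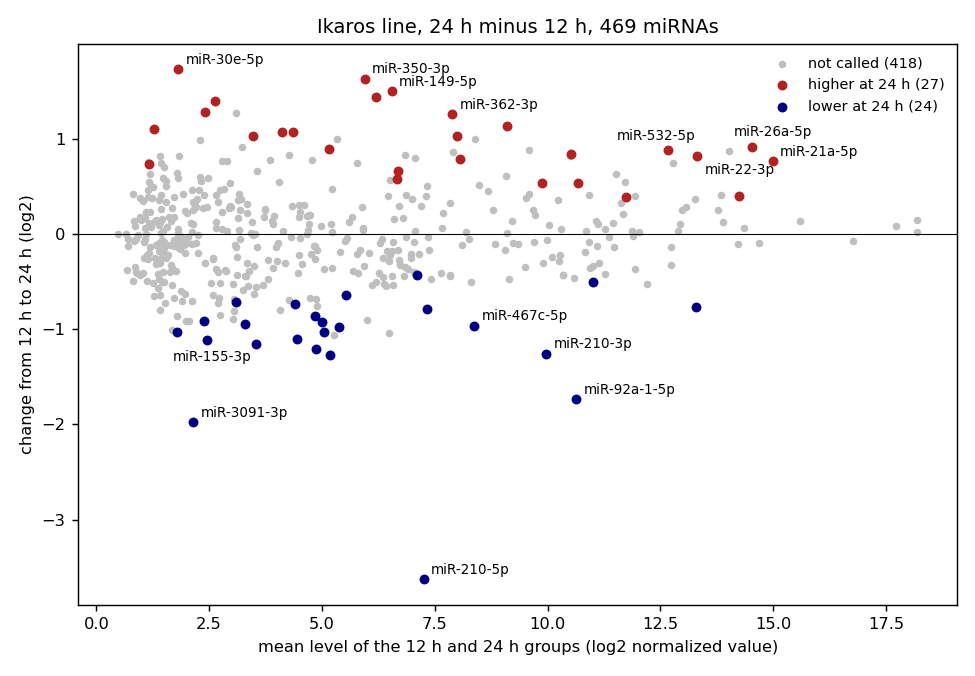
Change of the Ikaros line between 12 h and 24 h (y axis, log2) against the mean level of both groups (x axis, log2 normalized value) for 469 miRNAs, with the 27 that rose in red, the 24 that fell in blue and the rest in grey. Falls reach further than rises, with miR-210-5p at -3.63, and the called rises extend to the abundant miR-26a-5p, miR-22-3p and miR-21a-5p.

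The clearest fall belonged to miR-92a-1-5p, the partner arm of miR-92a in the miR-17-92 cluster (GRCm38, 14:115044427-115044506, plus strand, in an exon of Mir17hg). Its level was 11.24, 11.54 and 11.73 at 12 h, 10.46, 10.78 and 10.73 at 18 h, then 9.77, 10.02 and 9.51 at 24 h. The 3 times did not overlap, and each step was downward in every batch. The fall from 12 h to 24 h was 1.74 on the log2 scale (SE 0.17, adjusted p = 2.7e-08). The means of the same culture batches were 12.37 at 2 h and 11.88 at 6 h. The name of the guide arm miR-92a-3p does not separate the hairpins miR-92a-1 and miR-92a-2. This guide arm had 12.75, 12.59 and 12.03 at 12 h and 11.47, 11.87 and 12.44 at 24 h, which overlapped. Its fitted change of -0.53 (95% interval -1.08 to 0.03) did not pass the test.

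None of the 6 guide arms of the miR-17-92 cluster changed, with a median of -0.231. Without 12 h replicate 1 all 6 guide arms had negative values (median -0.559), and without 12 h replicate 4 their median was 0.0512. Of the 6 partner arms 2 fell, miR-92a-1-5p and miR-17-3p, and the median was -0.375. Over all 469 miRNAs 24 fell (5.12%). miR-17-3p went from 7.24, 7.34 and 7.37 to 6.95, 6.73 and 6.97 with no overlap, a fall by 0.43 (SE 0.14, adjusted p = 0.038). miR-17-3p lost the test in 12 of 18 alternative settings, among them sample medians subtracted and each setting that left out a 12 h library, whereas miR-92a-1-5p lost it in 1. Over all 469 miRNAs 27 rose (5.76%), and of the related miR-106b-25 cluster, in an intron and exon of Mcm7, 1 of 6 members did. This was miR-93-5p, whose level of 13.91, 14.04 and 14.16 became 14.38, 14.48 and 14.44, a rise of 0.39 (SE 0.11, adjusted p = 0.019). With quantile normalization its change was 0.11 (adjusted p = 0.78), and it lost the test in 8 of 18 alternative settings, among them without 12 h replicate 1 (0.33, adjusted p = 0.096). miR-93-5p has the seed of miR-17-5p, and of the 6 measured miRNAs with that seed it alone rose (median -0.105).

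The largest fall was that of miR-210-5p. Its level was 9.12, 9.29 and 8.80 at 12 h, 7.13, 7.44 and 6.49 at 18 h, then 5.04, 5.22 and 6.07 at 24 h, with no overlap among the times. It fell by 3.63 (SE 0.56, adjusted p = 3.3e-05). The other arm, miR-210-3p, the usual guide, was at 10.90, 10.52 and 10.39 at 12 h, at 10.42, 10.09 and 10.13 at 18 h, then at 8.70, 9.28 and 10.05 at 24 h. The 24 h libraries all lay below those of 12 h, with replicate 4 closest, and miR-210-3p fell by 1.26 (SE 0.34, adjusted p = 0.012). Without 24 h replicate 1 that fall was 0.94 and did not pass (adjusted p = 0.12), nor did it without 12 h replicate 1 (adjusted p = 0.061). The hairpin lies at 7:141221384-141221493 on the minus strand, where no gene is annotated on that strand.

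Further falls reached miRNAs of lower level. miR-3091-3p, from an intron of Rps21 (2:180257536-180257611, plus strand), had 3.44, 3.25 and 2.71 at 12 h, 2.44, 1.66 and 1.78 at 18 h, then 1.43, 0.90 and 1.13 at 24 h. Its times did not overlap, and it fell by 1.98 (SE 0.46, adjusted p = 0.0043). miR-92b-3p went from 6.03, 6.00 and 5.42 to 4.04, 4.79 and 4.79 and fell by 1.28 (SE 0.25, adjusted p = 0.00072). It was the only one of 5 measured miRNAs with the seed of miR-92a-3p to fall by this test (median -0.43). Both measured 5p arms of the miR-128 hairpins fell. miR-128-1-5p, from an intron of R3hdm1, had 6.08, 5.53 and 4.81 at 12 h and 4.06, 4.24 and 4.49 at 24 h, and miR-128-2-5p, from an intron of Arpp21, had 2.50, 2.28 and 2.12 against 1.80, 0.83 and 1.19. The falls were 1.21 (SE 0.26) and 1.03 (SE 0.25). Every control library of 12 h held 1.09 for miR-128-2-5p, within the range of its 24 h values here. Whether 1.09 is a floor value was not tested. The remaining falls of at least 1 log2 unit, miR-155-3p, miR-467d-3p, miR-301b-5p and miR-339-3p, lay between 1.03 and 1.16. That of miR-467d-3p was lost in 13 of 18 alternative settings and that of miR-301b-5p in 8.

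The largest rise was that of miR-30e-5p, from an intron of Nfyc (4:120772606-120772697, minus strand). Its level was 1.00, 0.90 and 0.95 at 12 h, 1.92, 2.73 and 1.95 at 18 h, then 3.02, 2.53 and 2.47 at 24 h. Every later library exceeded those of 12 h, and the rise from 12 h to 24 h was 1.73 (SE 0.29, 3.31-fold, adjusted p = 1.0e-04). The level stayed far below that of its own 3p arm, at 11.12 to 11.59 in the 12 h libraries. On the linear scale the mean share of miR-30e-5p in a library's total was 0.0001% at 12 h and 0.0004% at 24 h. The alternative setting without the 25% of miRNAs with the lowest means left miR-30e-5p out, so it was not tested there. In the same culture batches the means of miR-30e-5p were 2.09 at 2 h, 1.62 at 6 h and 0.95 at 12 h. miR-30c-5p, partly from the neighbouring hairpin in the same intron (4:120769534-120769622), had 9.62, 10.13 and 10.55 at 12 h and 11.05, 11.07 and 10.69 at 24 h. It rose by 0.84 (SE 0.22, adjusted p = 0.011). Of 4 measured miR-30 family members 2 rose (median 0.564), against 27 of all 469 miRNAs (5.76%). Without 12 h replicate 1 only miR-30e-5p rose, miR-30c-5p then having a change of 0.60 (adjusted p = 0.11).

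miR-350-3p, from an intron of Cep170 (1:176772325-176772423, minus strand), had 4.80, 5.02 and 5.58 at 12 h and 7.20, 6.46 and 6.63 at 24 h. Every 24 h library lay above every 12 h library, and it rose by 1.63 (SE 0.28, 3.10-fold, adjusted p = 1.5e-04). miR-149-5p, from an intron of Gpc1 (1:92850378-92850443, plus strand), had 5.95, 5.88 and 5.58 at 12 h, 6.35 to 6.83 at 18 h, then 7.36, 7.29 and 7.24 at 24 h. Its 3 times did not overlap, and the rise was 1.50 (SE 0.22, 2.82-fold, adjusted p = 2.4e-05). miR-28a-3p rose by 1.44 (SE 0.28), from 5.67, 5.48 and 5.29 to 7.33, 6.59 and 6.83. The other rises named by size were miR-6240, miR-1843a-3p, miR-362-3p, miR-374b-5p, miR-5121 and miR-1949, between 1.07 and 1.39. miR-6240 and miR-5121 lay at low levels, between 0.37 and 2.17 in the 12 h libraries. miR-1843a-3p was also low, with a 12 h mean of 1.76. miR-1949 lost the test in 10 of 18 alternative settings.

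Among the abundant miRNAs, miR-26a-5p was at 14.00, 14.19 and 14.02 at 12 h, 14.47, 14.55 and 14.62 at 18 h, then 14.99, 14.91 and 15.06 at 24 h. Its times did not overlap, and it rose by 0.91 (SE 0.13, 1.88-fold, adjusted p = 1.5e-05). On the linear scale its mean share of a library's total went from 1.23% to 2.2%. The relative with the same seed, miR-26b-5p, had 11.42, 11.21 and 10.85 against 10.72, 11.07 and 11.29, with a change of -0.13 (95% interval -0.55 to 0.28). miR-26a comes from a pair of hairpins, in an intron of Ctdspl (9:119031796-119031885) and an exon of Ctdsp2 (10:126995530-126995613). The partner arm of the latter, miR-26a-2-3p, also rose, by 0.89 (SE 0.24, adjusted p = 0.011).

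miR-22 rose in both arms. The guide miR-22-3p, from an exon of its host transcript Mir22hg (11:75463716-75463810), had 13.01, 12.98 and 12.74 at 12 h, 13.24, 13.30 and 13.34 at 18 h, then 13.72, 13.66 and 13.81 at 24 h. It rose by 0.82 (SE 0.13, adjusted p = 4.3e-05) with no overlap among the times. miR-22-5p rose by 1.03 (SE 0.26, adjusted p = 0.0098). miR-21a-5p, a miRNA of growth and inflammation that lies in an exon of Vmp1 (11:86584067-86584158, minus strand), had 14.66, 14.47 and 14.70 at 12 h and 15.39, 15.34 and 15.38 at 24 h. It rose by 0.76 (SE 0.14, 1.69-fold, adjusted p = 2.6e-04), and its mean linear share went from 1.78% to 2.87%. With quantile normalization its rise was 0.38 and did not pass.

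**Figure D3:**
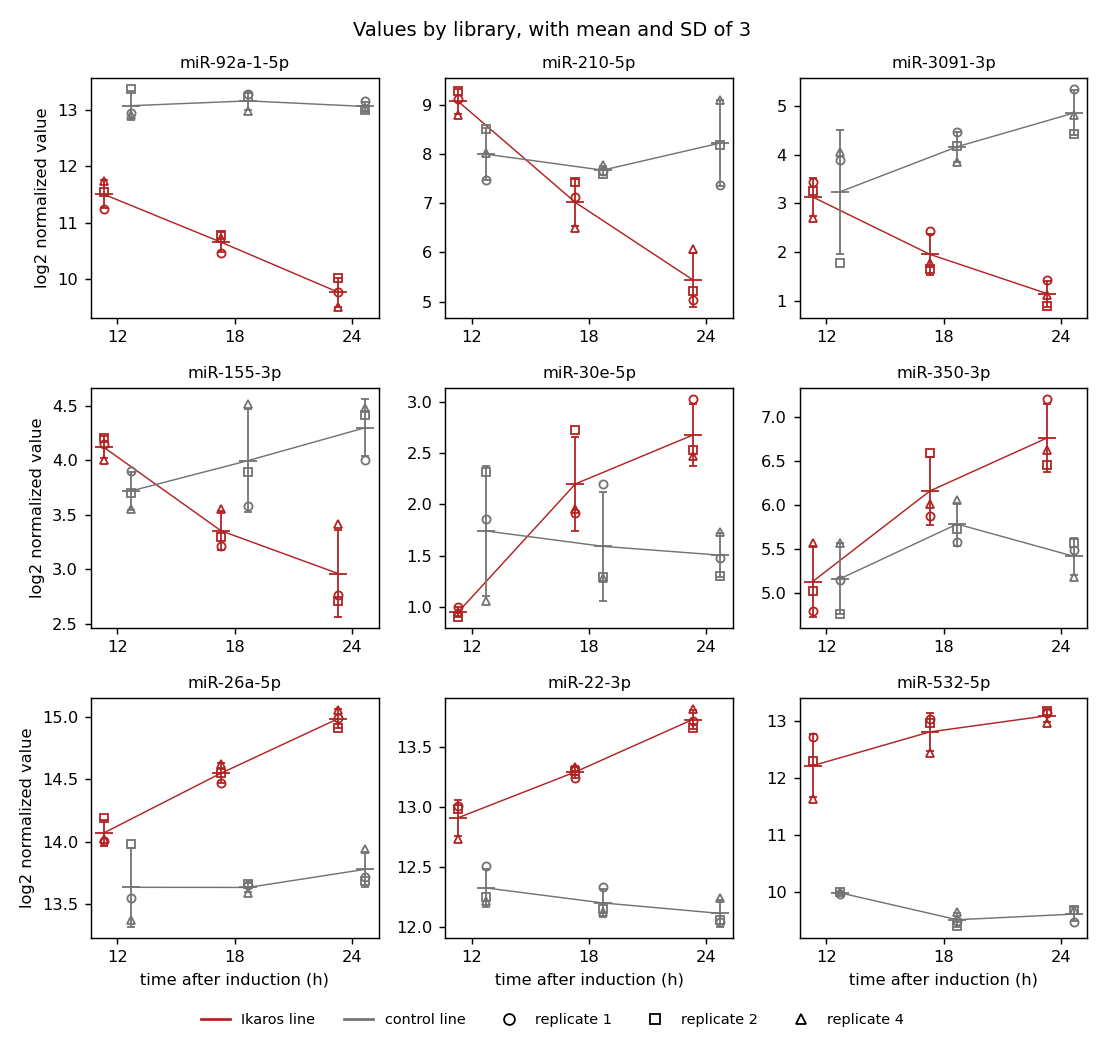
Log2 normalized values by library (y axis) at 12 h, 18 h and 24 h (x axis) for 9 miRNAs, with the Ikaros line in red and the control line in grey, the symbol for the replicate number, and lines and bars for the mean and SD of 3 libraries. In the Ikaros line miR-92a-1-5p steps down from a mean of 11.5 to 10.7 and 9.77 and miR-26a-5p steps up from 14.07 to 14.55 and 14.98, and the times of neither overlap.

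The 18 h libraries lay between. The 18 h mean was between those of 12 h and 24 h for 50 of the 51 miRNAs (98%), against 261 of all 469 (55.7%); the 51 were selected on the outer times. The exception was miR-151-3p, at 3.72, 3.43 and 3.59 at 12 h, 4.87, 4.95 and 4.73 at 18 h, then 4.36, 4.45 and 5.13 at 24 h, so that its 18 h and 24 h libraries overlapped. The step from 12 h to 18 h alone passed for 4 miRNAs (0.853%), 3 higher (0.64%) and 1 lower (0.213%), with 46 at an unadjusted p under 0.05. miR-30e-5p rose by 1.25 (SE 0.29), miR-151-3p by 1.27 (SE 0.31) and miR-1198-5p by 0.69 (SE 0.14), while miR-92a-1-5p fell by 0.85 (SE 0.17). In the step from 18 h to 24 h only miR-92a-1-5p passed (0.213%, with 33 at an unadjusted p under 0.05), with a fall by 0.89 (SE 0.17, adjusted p = 0.0090). With the culture batch as a block 2 miRNAs passed there, both lower. No miRNA had steps that differed by the test of their difference (limma, 0 of 469, 4 at an unadjusted p under 0.05, and 0 also with array weights), and the median SE of that difference was 0.506.

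The balance between the arms of a hairpin was compared as the 5p level minus the 3p level. This was done for the 129 hairpins whose 5p and 3p arms were measured under the same base name. Arms whose names differ, such as miR-92a-1-5p and miR-92a-3p, were not paired, so their balance was not tested. The balance moved for 5 of them (3.88%), towards the 5p arm in 3 (2.33%) and away from it in 2 (1.55%). For miR-210 it was -1.77, -1.23 and -1.58 at 12 h and -3.66, -4.06 and -3.98 at 24 h, a shift away from the 5p arm by 2.37 (SE 0.41, adjusted p = 1.7e-04). For miR-30e the balance shifted to 5p by 1.76 (SE 0.26, adjusted p = 1.8e-05), from -10.12, -10.49 and -10.64 to -8.41, -8.83 and -8.73, while the 3p arm itself changed by -0.04 (SE 0.23). No library of 1 time overlapped with those of the other in either hairpin.

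For miR-155 the shift to 5p was 1.57 (SE 0.34), from 6.24, 6.48 and 7.03 to 8.41, 8.36 and 7.71. The partner miR-155-3p fell by 1.16 (SE 0.25, adjusted p = 0.0019), from 4.15, 4.21 and 4.01 to 2.76, 2.70 and 3.42. The guide miR-155-5p, from the same exon of Mir155hg (16:84714140-84714204, plus strand), had 10.39, 10.69 and 11.04 against 11.17, 11.06 and 11.12, with a change of 0.41 (95% interval 0.04 to 0.78, adjusted p = 0.16). For miR-1198, in an intron of Gripap1 (X:7807101-7807221), the shift to 5p was 1.33 (SE 0.30), and the 5p arm rose by 1.03 (SE 0.14, adjusted p = 6.0e-06). For miR-6992 the balance fell by 1.44 (SE 0.36), although neither arm passed alone. Both of its arms were scarce. The mean linear share was 0.0007% at 12 h and 0.0003% at 24 h for the 5p arm, and 0.0002% at both times for the 3p arm. At least 1 arm changed in 26 of the 129 hairpins, and both arms in 2, miR-22 and miR-210. miR-26a-5p and miR-26a-2-3p also both rose, but their names differ and they were not among the 129. Without the miRNAs of the lowest means, 3 hairpins passed. The miR-30e hairpin was not tested in that setting, because its 5p arm was left out.

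**Figure D4:**
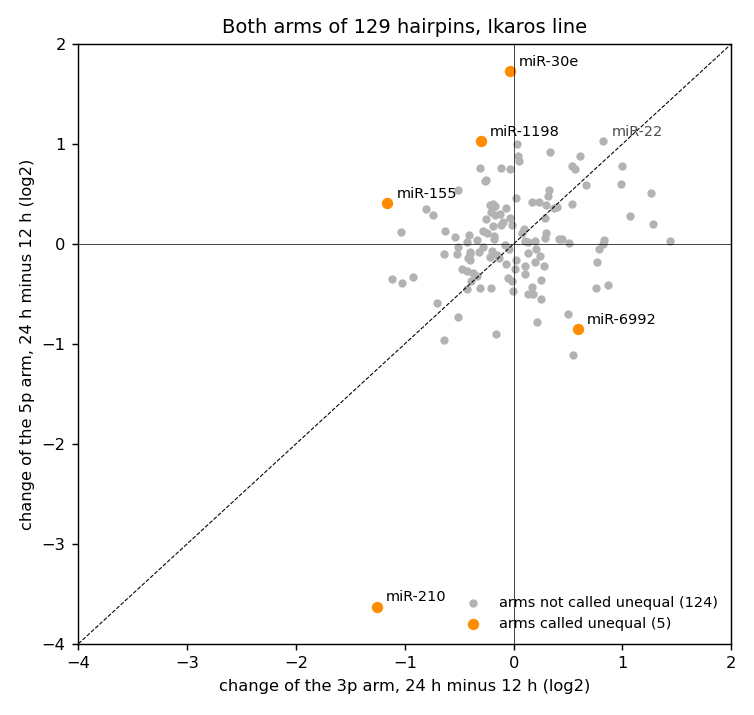
Change of the 5p arm (y axis) against change of the 3p arm (x axis), 24 h minus 12 h on the log2 scale, for 129 hairpins of the Ikaros line, with the line of equal change dashed and the 5 hairpins of unequal change in orange. miR-210 lies in the lower left with both arms down and the 5p arm further, and miR-30e, miR-155 and miR-1198 lie above the line.

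The other lists of miRNAs were read against all 469 miRNAs, of which 27 rose (5.76%) and 24 fell (5.12%), with a median change of -0.036. The cluster in introns of Clcn5 on the X chromosome holds 10 measured miRNAs, whose changes ran from 0.03 to 1.26 with a median of 0.76, and 2 of them rose. miR-362-3p (X:7241982-7242046, minus strand) went from 7.71, 7.25 and 6.80 to 8.73, 8.60 and 8.21, a rise of 1.26 (SE 0.30, adjusted p = 0.0054). miR-532-5p went from 12.73, 12.31 and 11.63 to 13.15, 13.18 and 12.97, a rise of 0.88 (SE 0.23, adjusted p = 0.011). In each, all 24 h libraries lay above those of 12 h. All 10 values were positive here, against 222 of all 469. With quantile normalization, without 12 h replicate 1 or without 12 h replicate 4, 9 of 10 were positive, and 2, 4 and 1 members passed. The rise of miR-532-5p was lost with quantile normalization (0.72, adjusted p = 0.14) and without 12 h replicate 4 (0.58, adjusted p = 0.10).

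Of the 3 miR-29 family members 2 rose, against 27 of all 469 miRNAs (5.76%), and the family median was 0.664. miR-29a-3p had 10.43, 10.49 and 10.29 at 12 h and 10.83, 10.95 and 11.05 at 24 h, and it rose by 0.54 (SE 0.15, adjusted p = 0.013). miR-29c-3p, from another chromosome, had 6.52, 6.26 and 6.25 against 6.97, 6.96 and 7.09 and rose by 0.66 (SE 0.17, adjusted p = 0.0096). In both miRNAs the groups did not overlap. miR-29b-3p, which has hairpins at both places, had 7.34, 6.75 and 8.34 against 8.44, 8.74 and 7.81, with a change of 0.85 (SE 0.34, adjusted p = 0.10). miR-29a-3p lost the test in 6 of 18 alternative settings, among them without 12 h replicate 4 (0.48, adjusted p = 0.051), when miR-29b-3p and miR-29c-3p passed. miR-29c-3p lost it in 4 of 18.

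Over all 469 miRNAs 51 changed (10.9%), and among 9 known to regulate lymphocytes miR-21a-5p alone did (median 0.0601). This moved with the setting: miR-21a-5p and miR-223-3p rose with sample medians subtracted, miR-21a-5p and miR-155-5p without 12 h replicate 4, and with quantile normalization none rose and miR-146a-5p fell. The others included miR-155-5p, miR-150-5p at -0.36 (SE 0.33) and miR-146a-5p at -0.47 (SE 0.21). Rises were called for 27 of all 469 miRNAs (5.76%) and for 1 of 6 let-7 guides, miR-98-5p. This guide rose by 0.38 (SE 0.12, adjusted p = 0.032), from 11.78, 11.53 and 11.35 to 11.92, 11.95 and 11.94. It did not pass in 13 of 18 alternative settings, and without 12 h replicate 4 no let-7 guide rose and 1 fell. No member passed among 6 of the miR-15/16 family (median 0.0824), 4 of the miR-181 family (0.081), 4 of the miR-34 and miR-449 family (0.118) or 4 of the miR-23/27/24 clusters (0.0966). miR-27b-5p, the partner arm of one of the latter hairpins and on no list, fell by 0.78 (SE 0.25, adjusted p = 0.034).

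**Figure D5:**
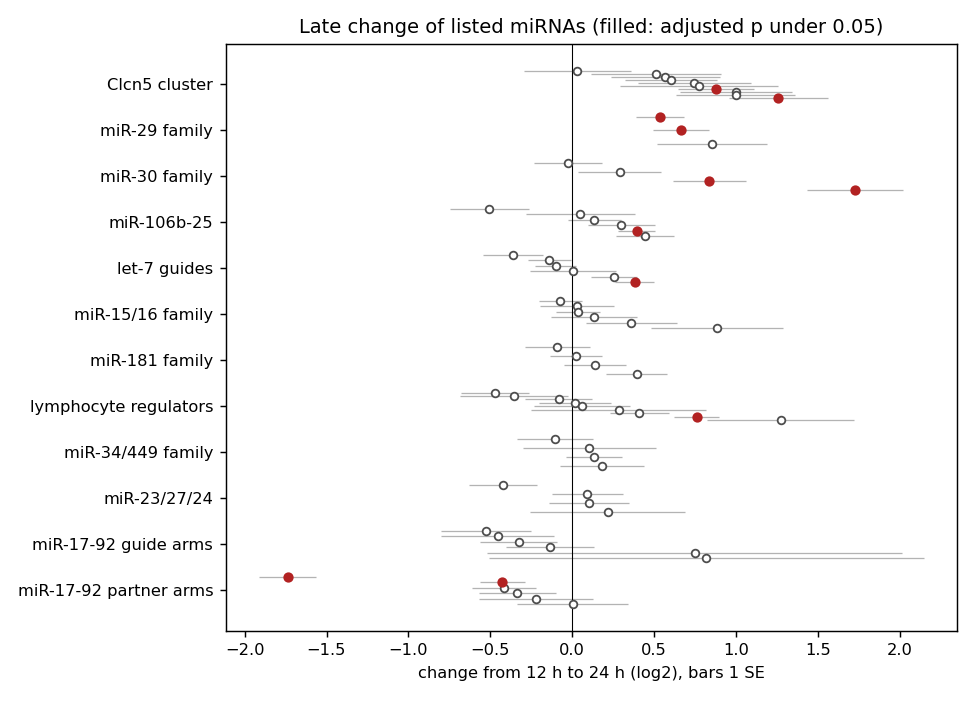
Change of the Ikaros line between 12 h and 24 h (x axis, log2, with bars of 1 SE) for the members of each list (y axis), filled where the adjusted p was under 0.05. The Clcn5 and miR-29 members all lie to the right of 0, miR-92a-1-5p lies far to the left, and miR-19a-3p and miR-19b-3p have SEs above 1.2.

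In the control line 8 miRNAs changed over the same hours (1.71%), 5 up (1.07%) and 3 down (0.64%), with 64 at an unadjusted p under 0.05 and a median over all miRNAs of 0.14. With sample medians subtracted the split was 3 up and 4 down. The control libraries of 12 h and 24 h did not overlap for 14.9% of miRNAs, 10% higher and 4.9% lower. The control libraries of 12 h and of 24 h were sequenced mainly in different batches, so that time and sequencing batch cannot be told apart in the control line other than through the correction by the authors. miR-6240 rose there too, from 1.08, 0.52 and 1.10 to 2.86, 2.33 and 2.46, by 1.65 (SE 0.27).

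The change of the Ikaros line minus that of the control line passed for 34 miRNAs (7.25%), 13 above (2.77%) and 21 below (4.48%) the control, and 21 of these were among the 51. The split was 21 above and 12 below with sample medians subtracted, and 14 and 10 with quantile normalization. The difference was -1.72 for miR-92a-1-5p (SE 0.25, adjusted p = 4.8e-05), whose control libraries stayed between 12.92 and 13.37 at 12 h and between 12.99 and 13.16 at 24 h. It was 1.04 for miR-1198-5p (SE 0.19), 1.03 for miR-22-3p (SE 0.18), 0.91 for miR-21a-5p (SE 0.20) and 0.77 for miR-26a-5p (SE 0.19). For miR-3091-3p the difference of -3.59 included a control change of 1.62, with 12 h control values of 3.88, 1.78 and 4.05 and 24 h control values of 5.34, 4.41 and 4.82. Differences for miR-28a-3p (1.14, adjusted p = 0.081), miR-362-3p (1.30, adjusted p = 0.060), miR-92b-3p (-0.92, adjusted p = 0.11), miR-29c-3p (0.63, adjusted p = 0.11) and miR-6240 (-0.26, adjusted p = 0.74) did not pass. Those of miR-210-3p and miR-30c-5p did not pass either (adjusted p = 0.27 and 0.35). Nor did that of miR-128-1-5p (-0.60, adjusted p = 0.35), whose control mean went from 6.03 at 12 h to 5.42 at 24 h.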

How the data were processed

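Small RNA libraries of 9 Ikaros samples (12 h, 18 h and 24 h) were described within the 36 samples of the series. The authors mapped reads with Novoalign to the mouse entries of miRBase and obtained counts with multiBamCov (bedtools). NOISeq served them to drop low miRNAs, cqn to remove GC effects, TMM to scale libraries and ComBat to remove the sequencing batch, and technical replicates were then averaged. The table holds the resulting log2 values as deposited. Versions are not given in the sources used here. Near-identical miRNAs may share reads, and how these were assigned was not given.

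All 36 samples entered 1 limma 3.58.1 model (R 4.3.3) with a mean for each of 12 groups and eBayes with a mean-variance trend, two-sided, with Benjamini-Hochberg adjustment over 469 miRNAs (129 hairpins for arm balance) and a threshold of 0.05. A change is a difference of group means with its SE, and intervals are at 95%. The scripts were tested on simulated data. Named miRNAs are the 10 largest rises and the 10 largest falls among called miRNAs whose 3 same-numbered pairs all had 1 sign, the 5 largest in each direction for each step, the called hairpins of arm balance, and the called members of the lists. The other miRNAs named (both arms of miR-22, miR-26a-5p, miR-26a-2-3p, miR-26b-5p, miR-128-2-5p, miR-27b-5p and miR-342-3p, and members of the miR-297, miR-466, miR-467 and miR-669 families) were chosen after their values were seen. The members and lists were chosen with earlier results of these data known. Sequences, matched by mature name, and hairpin positions (GRCm38), joined by gene identifier, come from RefSeq. Host genes are those of GENCODE vM21 that contain the hairpin on the same strand.

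The pairing by number comes from the labels, which give same-numbered samples a shared culture batch. Same-numbered deviations from group means between 12 h and 24 h correlated at -0.535, -0.0848 and -0.609, and between 12 h and 18 h at 0.265, 0.114 and 0.125. Alternatives were the batch as a block, only the groups compared, other scalings, array weights, a filter on low means, and leaving out libraries. A fit to the 18 Ikaros samples was added after seeing the data. Computation in Python 3.11.15 used numpy 2.4.6 and pandas 2.3.3, with matplotlib 3.10.9 for figures.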

Additional observations from a re-analysis of the deposited data

Results flagged for a closer look

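The change from 12 h to 24 h differed between the Ikaros line and the control line for 34 of 469 miRNAs by the limma test of the difference itself. Among the miRNAs named by size, the difference (Ikaros change minus control change) was 1.96 for miR-30e-5p (adjusted p = 0.0024), 1.38 for miR-350-3p (adjusted p = 0.029), 1.18 for miR-149-5p (adjusted p = 0.021) and 1.34 for miR-1843a-3p (adjusted p = 0.029). These 4 miRNAs changed by between -0.24 and 0.32 in the control line.

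The differences below 0 were -3.85 for miR-210-5p (adjusted p = 0.0022), -1.72 for miR-92a-1-5p (adjusted p = 4.8e-05), -1.74 for miR-155-3p (adjusted p = 0.0022) and -1.68 for miR-301b-5p (adjusted p = 0.021). For a further pair of miRNAs the control line moved the other way by more than 1 log2 unit. miR-3091-3p differed by -3.59 (adjusted p = 5.7e-04), with changes of -1.98 for Ikaros and 1.62 for the control. miR-339-3p differed by -2.16 (adjusted p = 5.2e-04), with changes of -1.03 and 1.13, with 12 h control values of 5.68, 4.48 and 5.69 and 24 h control values of 6.21, 5.97 and 7.07. For the control, time and sequencing batch cannot be told apart other than through the correction by the authors.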

How the results depend on the processing

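For the change from 12 h to 24 h (51 miRNAs), the count lay between 39 and 52 with the replicate block, sample medians subtracted, quantile normalization, no mean-variance trend, a filter on low means, and the 18 Ikaros samples. The replicate block gave 52, of which 50 were among the 51. With only the groups compared it was 7, with the block added 0, and with array weights 85. Leaving out 1 library gave 34 (24 h replicate 2) to 52, and leaving out a replicate number 24 (replicate 2), 31 (replicate 1) and 71 (replicate 4).

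For 12 h to 18 h (4 miRNAs) the counts were 1 with only the groups compared and 1 with the block added, 2 with sample medians subtracted, 10 with array weights and 0 with the 18 Ikaros samples, and 0 to 3 without a library or number. For 18 h to 24 h (1 miRNA) they were 2 with the replicate block, 6 with array weights, 0 with only the groups compared, with the block added, with sample medians subtracted and with the 18 Ikaros samples, and 0 to 2 without a library or number. For the control line (8) they were 0 with only the groups compared, 0 with the block added, 2 with array weights, and 2 to 13 without a library or number, the 13 without control 12 h replicate 4 and the 3 without control 24 h replicate 4. For the difference between the lines (34) they were 9 with only the groups compared, 3 with the block added, and 10 to 52 without a library or number, with 52 without control 12 h replicate 1 and 21 without control 12 h replicate 2 or control 24 h replicate 4. For the balance of arms (5) they were 2 with only the groups compared, 0 with the block added, 10 with array weights, 3 with the filter on low means, and 2 to 13 without a library or number. For the difference between steps the count was 0 in each setting run.

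Of the 30 named miRNAs none changed sign in any setting that held them, which was in large part built into the choice and the settings. Those named by size were picked among miRNAs whose pair differences did not differ in direction. Leaving out a replicate number could therefore not reverse them. The replicate block, fits to fewer groups, no mean-variance trend and the filter on low means alter the test and not the change. With the replicate block 30 held, with only the groups compared 7, and with the block added to that 0. The filter on low means kept 28 of the 30, all of which passed, and left out miR-30e-5p and miR-5121. The causes of these differences were not tested. The table holds no counts, so how far depth limits the low miRNAs was not tested.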

Other observations

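The named families miR-297, miR-466, miR-467 and miR-669, rodent miRNAs of which many are made from repeated hairpins in an intron of Sfmbt2, lay mostly below 0 in the change from 12 h to 24 h. Of 35 members measured, 5 fell and 0 rose by limma, 29 had negative values, and the median was -0.353. Over all 469 miRNAs 24 fell (5.12%), 247 had negative values and the median was -0.036. miR-467c-5p had 8.95, 8.95 and 8.67 at 12 h, 8.61, 8.29 and 8.58 at 18 h, then 7.77, 8.08 and 7.82 at 24 h. Its times did not overlap, and it fell by 0.97 (SE 0.15, adjusted p = 3.3e-05). The others that fell were miR-467d-3p, miR-466n-3p, miR-669f-3p and miR-669p-3p, by between 0.64 and 1.12. Many members are near-identical and may share reads, so they are not independent measurements. The families were chosen by name after their values were seen. With quantile normalization 3 fell and 26 had negative values, and without 12 h replicate 4 the numbers were 3 and 23, with miR-467b-5p among the 3.

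Across the 391 miRNAs with a sequence, Pearson's r between GC percentage and the change from 12 h to 24 h was -0.243, and with the weights of the first principal component -0.288. This is a description across miRNAs measured in the same 9 libraries, which are not independent replicates, and the part of GC content in the changes was not tested.

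miR-128-2-5p, which fell in the Ikaros line, held the same value of 1.09 in all 6 control libraries of 12 h and 18 h, so its control spread at those times is 0 in the deposited table.

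miR-342-3p, from an intron of Evl, was not on any list and rose by 0.78 (SE 0.16, adjusted p = 0.0012), from 7.52, 7.88 and 7.63 at 12 h to 8.68, 8.49 and 8.21 at 24 h, with no overlap. Its control mean went from 6.80 to 7.18, and the difference between the lines of 0.40 did not pass (adjusted p = 0.31).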
